A study of Mus musculus with 4 samples.

Results

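Coenzyme A (CoA) is the carrier of acyl groups on which fatty acid oxidation, the TCA cycle and lipid synthesis all depend, and fat cells make it from the vitamin pantothenate. To determine how the genes of CoA synthesis and of pantetheine recycling were expressed in the gonadal white adipose tissue (WAT) of FSP27-deficient mice, 10 genes were followed step by step. They are Slc5a6 (uptake of pantothenate), Pank1, Pank2, Pank3 and Pank4 (the pantothenate kinase family), and Ppcs, Ppcdc and Coasy (the later steps of synthesis). The others are Vnn1 and Enpp3 (enzymes at the cell surface that act on pantetheine and on nucleotides such as CoA). All probe sets annotated to these genes alone were taken, 15 of the 22690 on the arrays, and they cover 8 of the 10 genes. Pank2 and Pank4 have no probe set of their own here. A further probe set names Ppcs together with the pseudogene Gm8465, and it was not used. It was designed on the same sequence record as the Ppcs probe set that was used. Whether Gm8465 adds to the signal of the latter was not tested.

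FSP27, the product of the gene Cidec, is a lipid droplet protein of adipocytes. The groups were wild-type C57BL/6J mice and FSP27-deficient mice (Fsp27 knockout in the labels) of the same strain, all male and 3 months old, with no treatment named. RNA from the gonadal WAT of 5 mice of each genotype was combined in 1 pool (45 μg), and each pool was hybridized to 2 Affymetrix arrays. The duplicates are repeat hybridizations of 1 pool, so the spread between them is technical and carries no difference between mice. The values are GCOS signals (the output of Affymetrix's array software), a brightness on a linear scale. Median signals lay between 164.8 and 192.8 on the 4 arrays, and the number of arrays limits the precision.

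Cidec itself gave 8564 and 8949 in FSP27-deficient WAT against 20491 and 18255 in wild-type WAT, 2.21-fold less (log2 fold change -1.14, standard error (SE) 0.15, adjusted p = 5.7e-04 from limma). The sources used here do not place its probe set inside or outside the deletion, so this value alone does not check the genotype. Among the fat cell markers, Adipoq and Fabp4 had signals of 43790 to 62522 on every array, bright as in fat tissue. In FSP27-deficient WAT, 5 of 6 brown fat markers tested were higher (median log2 fold change 2.81), against 5.79% of all genes tested. Among the 5 markers, Dio2 reached the minimum signal for a test through FSP27-deficient WAT alone (mean 286 against 83.5 in wild-type WAT). A further Dio2 probe set did not pass the test (log2 fold change 0.79, adjusted p = 0.34 from limma over probe sets). Another did pass (2.86, adjusted p = 0.019), with a wild-type mean of 36.6.

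CoA synthesis begins when a pantothenate kinase phosphorylates pantothenate, the step that sets the pace of the pathway and that CoA and its acyl esters inhibit. PPCS then joins cysteine to phosphopantothenate, PPCDC removes a carboxyl group to give phosphopantetheine, and COASY adds the adenylyl group and the last phosphate. In the other direction, pantetheine released from degraded CoA is split by vanin 1, the product of Vnn1, into pantothenate and cysteamine, and the pantothenate can be used again.

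The pantothenate kinase genes also carry miRNA genes. The mature miRNAs that lie within the bounds of Pank1, Pank2 and Pank3, all on the strand of their host gene, are shown because their hosts are the genes of the first step. Sequences and positions are from RefSeq (mouse genome build GRCm38.p6), written 5′ to 3′, and capitals mark the seed, bases 2 to 8.
miR-107-3p, within Pank1 at chr19:34820700-34820722, minus strand: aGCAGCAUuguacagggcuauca
miR-103-3p, within Pank2 at chr2:131288103-131288125 and within Pank3 at chr11:35782447-35782469, both on the plus strand: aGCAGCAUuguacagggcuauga
miR-107-5p, within Pank1 at chr19:34820737-34820759, minus strand: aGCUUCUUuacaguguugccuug
miR-103-2-5p, within Pank2 at chr2:131288066-131288088, plus strand: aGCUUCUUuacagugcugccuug
miR-103-1-5p, within Pank3 at chr11:35782410-35782432, plus strand: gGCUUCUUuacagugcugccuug
The 3p arms of all 3 hosts thus share 1 seed, and so do the 5p arms. The 3p arms of miR-103 and miR-107 differ at 1 of 23 positions, G22C, counted from 1 at the 5′ end with the base of miR-103 first. The arrays read the host messages, and the levels of the miRNAs were not measured here.

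Signals were taken to log2 after adding 16, which understates the change of dim genes, and FSP27-deficient minus wild-type was tested with limma over all genes whose signals averaged 100 or more. Each gene was read from its brightest probe set, and a gene is called where its adjusted p is under 0.05. Of the 8 CoA genes with a probe set, Ppcs and Coasy were called higher and Vnn1 lower, and the other 5 did not pass the test. Vnn1 reached the minimum through wild-type WAT alone, with a mean of 277.5 against 38.9 in FSP27-deficient WAT, so a gene of its kind had to differ to be tested. Over the 8522 genes tested 5.79% were called higher and 6.51% lower. The median log2 fold change was 0.28 over the 8 genes and -0.08 over all genes tested. The former was 0.16 when wild-type replicate 1 was left out, 0.51 when wild-type replicate 2 was, and 0.53 from the highest signal in each array, and the median of the 11 probe sets tested was 0.60. With the probe sets on their own, 2 of the 11 tested were called higher and 1 lower, the same probe sets of Ppcs, Coasy and Vnn1, against 4.81% and 5.4% of the 14360 probe sets tested. An exact two-sided permutation test of 2 against 2 arrays cannot give a p below 0.333, so the calls rest on the spread that limma estimates across all genes.

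**Figure D1:**
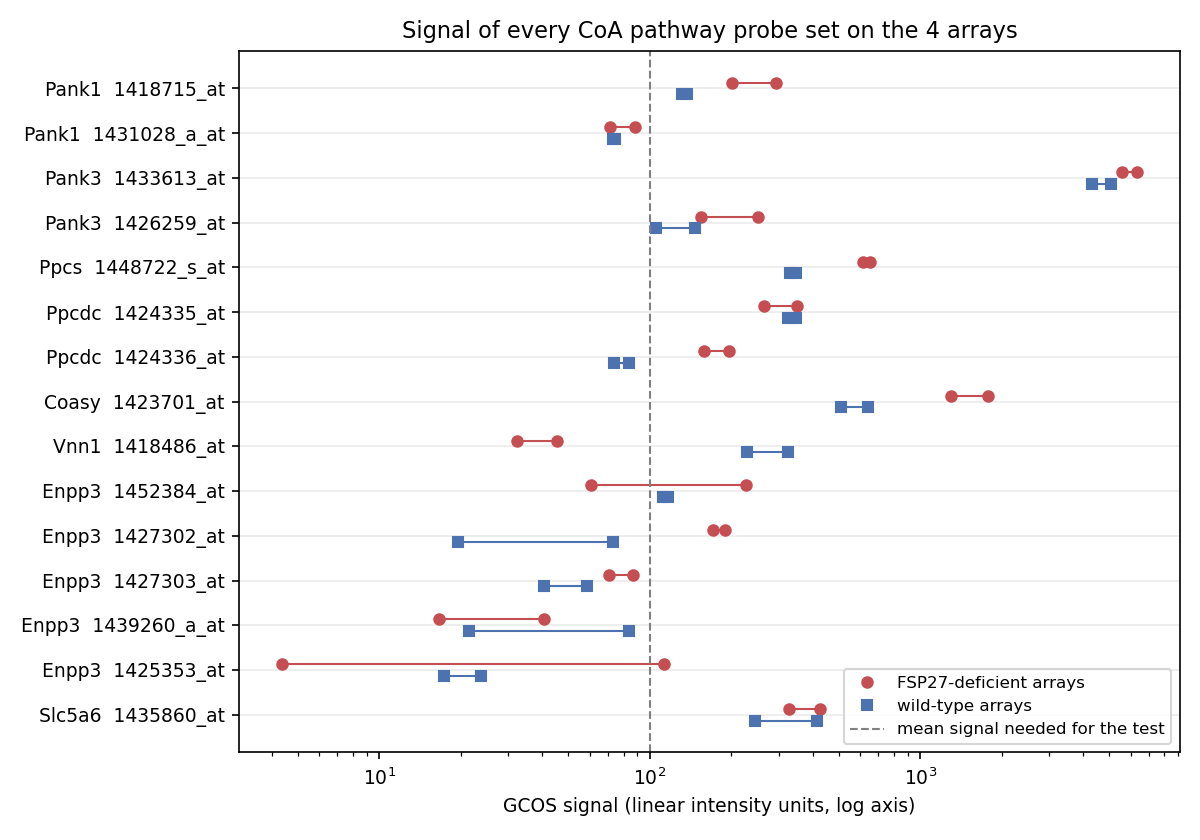
GCOS signal (linear units on a log axis) of all 15 probe sets of the CoA genes, with circles for the 2 FSP27-deficient arrays, squares for the 2 wild-type arrays and a line between duplicates. The Coasy and Ppcs pairs lie apart with FSP27-deficient higher, the Vnn1 pairs lie apart with FSP27-deficient lower, and the duplicates of several Enpp3 probe sets lie further from each other than the genotypes do.

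Pantothenate enters the cell through the product of Slc5a6, a sodium-dependent transporter that also carries biotin and lipoate. Slc5a6 had signals of 326.2 and 424.6 in FSP27-deficient WAT and 245.9 and 414.5 in wild-type WAT. The genotypes overlapped, and the wild-type duplicates differed from each other by 1.69-fold, more than the 1.14-fold difference of the means. The log2 fold change was 0.21 (95% interval -0.45 to 0.87, adjusted p = 0.72 from limma), so this gene did not pass the test, and a change of up to 0.87 lies within the interval.

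The pantothenate kinases were read by 4 probe sets, of Pank1 and Pank3. For Pank1, the kinase gene best known from liver, the brighter probe set had signals of 201.1 and 293.4 in FSP27-deficient WAT and 137.4 and 132.0 in wild-type WAT. Both FSP27-deficient arrays were above both wild-type arrays, with means 1.84-fold apart, but the interval of the log2 fold change ran from -0.07 to 1.63 around 0.78 (SE 0.39, adjusted p = 0.24 from limma). The other Pank1 probe set gave 88.0 and 71.2 against 72.8 and 74.1. Its genotypes overlapped, and its mean was under the minimum of 100, so it was not tested. The Pank1 probe sets were designed on different sequence records, and the difference between them was not tested.

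Pank3, a kinase gene expressed in many tissues, had signals of 5567 and 6331 in FSP27-deficient WAT and 4324 and 5054 in wild-type WAT. All 4 arrays thus had a bright Pank3 signal, and the genotypes lay apart by a small margin. The means differed by 1.27-fold, a log2 fold change of 0.34 (SE 0.17, interval -0.03 to 0.72), and the adjusted p was 0.24. The dimmer Pank3 probe set, with signals of 250.4 and 155.1 against 147.0 and 105.6, lay the same way at 1.61-fold (log2 fold change 0.60, SE 0.45, adjusted p = 0.46 at the level of probe sets). The 3 pantothenate kinase probe sets that were tested therefore all had both FSP27-deficient arrays above both wild-type arrays, as did 22.3% of all probe sets tested. None of the 3 passed the test, and the genotypes overlapped in the Pank1 probe set that was not tested.

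Ppcs, whose product joins cysteine to phosphopantothenate, rose from 330.7 and 347.4 in wild-type WAT to 612.3 and 650.3 in FSP27-deficient WAT. The duplicates differed by 1.06-fold and 1.05-fold, and the genotypes by 1.86-fold (log2 fold change 0.87, SE 0.23, interval 0.36 to 1.37, adjusted p = 0.029 from limma). The call was lost when FSP27-deficient replicate 2 (adjusted p = 0.067), wild-type replicate 1 (0.19) or wild-type replicate 2 (0.14) was left out, and with no filter on the signal (0.067), with a log2 fold change of 0.82 to 0.90 throughout.

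Ppcdc, whose product decarboxylates the PPCS product to phosphopantetheine, gave different pictures in its probe sets, which were designed on 1 sequence record. The brighter one had signals of 265.0 and 349.8 in FSP27-deficient WAT and 346.6 and 325.5 in wild-type WAT, which overlap (log2 fold change -0.13, SE 0.28, adjusted p = 0.82 from limma). The dimmer one had 196.7 and 158.0 against 73.9 and 83.9, with the genotypes apart and means 2.25-fold higher in FSP27-deficient WAT, and it reached the minimum of 100 through FSP27-deficient WAT alone. Its log2 fold change was 1.02 with an SE of 0.54, and it did not pass the test (adjusted p = 0.29). The direction for Ppcdc therefore depended on the probe set, and it was 0.44 (adjusted p = 0.40) with both averaged.

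Coasy, which encodes the bifunctional enzyme of the last steps, showed the largest rise of the 8 genes. Its signals were 1303 and 1779 in FSP27-deficient WAT and 509.6 and 638.5 in wild-type WAT. The lowest FSP27-deficient signal was above the highest wild-type signal by more than the duplicates of either genotype differed, which was 1.37-fold and 1.25-fold. The means differed by 2.68-fold, a log2 fold change of 1.39 (SE 0.23, interval 0.89 to 1.89, adjusted p = 0.0023 from limma), and 98.6% of all genes tested had a lower log2 fold change. Coasy was called higher whichever array was left out, but not without the dependence of the spread on the signal (adjusted p = 0.091) or with the methods' test on the same values (adjusted p = 0.29). Such losses were general, since limma without that dependence called 1 gene of all 8522 and the methods' test called 0, of 1860 and 1309 with an unadjusted p under 0.05.

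**Figure D2:**
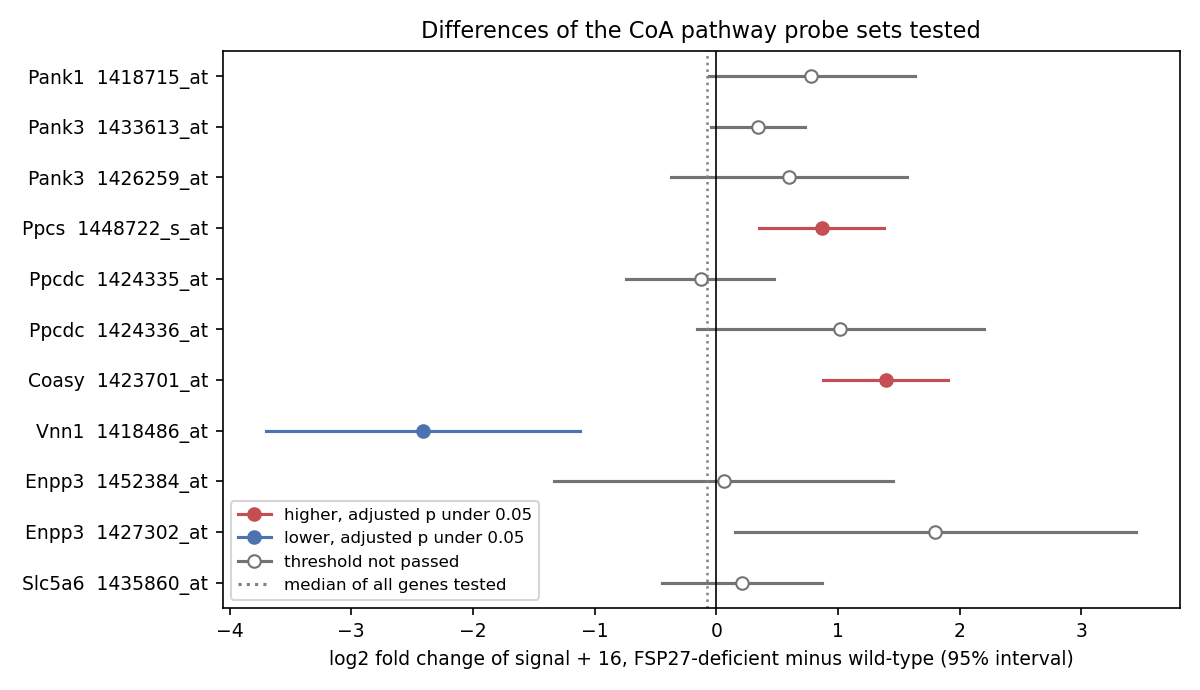
Log2 fold change of signal + 16, FSP27-deficient minus wild-type, with its 95% interval from limma, for the 11 probe sets of the CoA genes that were tested; filled circles passed an adjusted p of 0.05. Ppcs and Coasy lie to the right of 0, Vnn1 lies to the left with a wide interval, and the intervals of all others include 0 except that of the second Enpp3 probe set.

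On the recycling side, Vnn1 was the member that fell. Its signals were 325.7 and 229.3 in wild-type WAT and 45.4 and 32.4 in FSP27-deficient WAT, so the genotypes lay far apart. The means differed by 7.13-fold (log2 fold change -2.41, SE 0.60, interval -3.71 to -1.11, adjusted p = 0.020 from limma). Both FSP27-deficient signals were under the lower quartile of their own arrays (55.9 and 53.8), so the size of the fall is uncertain, and it ran from -2.80 to -1.72 on the log2 scale with pseudocounts of 1 and 64. With no filter on the signal the adjusted p was 0.038 over genes, and over probe sets, where it was 0.050, the call was lost. The call was also lost without wild-type replicate 1 (adjusted p = 0.45) or wild-type replicate 2 (0.25), with log2 fold changes of -2.17 and -2.65.

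Vnn3, a vanin gene that lies beside Vnn1 on chromosome 10 with a gap of 24.8 kb and no other RefSeq gene between them, was not lower. Vnn3 occupies chr10:23851462-23869843 and Vnn1 chr10:23894688-23905344 (GRCm38.p6). Its signals were 536.3 and 898.9 in FSP27-deficient WAT and 311.2 and 531.1 in wild-type WAT, just apart in the direction opposite to Vnn1. The log2 fold change of 0.75 (SE 0.31, interval 0.08 to 1.42) did not pass the test (adjusted p = 0.15 from limma), and the difference between Vnn3 and Vnn1 was not tested.

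Enpp3 encodes an ectonucleotide pyrophosphatase, also known as a surface marker of basophils and mast cells. The brightest of its 5 probe sets gave 225.9 and 60.5 in FSP27-deficient WAT and 116.3 and 112.3 in wild-type WAT. The FSP27-deficient duplicates thus differed by 3.73-fold and enclosed both wild-type signals (log2 fold change 0.06, SE 0.65, adjusted p = 0.97 from limma). A further probe set on the same sequence record had 189.2 and 171.7 against 19.6 and 73.2, with the genotypes apart and the minimum of 100 reached through FSP27-deficient WAT alone. Its log2 fold change was 1.80 with an SE of 0.76, and it did not pass the test either (adjusted p = 0.17). The remaining 3 Enpp3 probe sets had means under 100 and were not tested. One of them, on that same record, had both FSP27-deficient signals above both wild-type signals, and the other 2 overlapped, with duplicates as far as 25.7-fold apart. No Enpp3 probe set passed the test in either direction. Of the mast cell and basophil markers 5 of 11 were bright enough to test, and none passed, with a median log2 fold change of -0.88. That median is the value of Cpa3, whose mean was over 100 in wild-type WAT alone (89.3 in FSP27-deficient WAT against 167.1). Tpsb2 likewise reached the minimum through wild-type WAT alone (73.4 against 190.1), so the filter bears on the median. The summed signal of the 11 markers was 718.5 and 1251 in FSP27-deficient WAT and 1549 and 1697 in wild-type WAT. The share of such cells in the Enpp3 signals was not tested.

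By size alone, with a ratio of means of at least 1.41 and the arrays of the genotypes apart, Pank1, Ppcs and Coasy were higher and Vnn1 was lower. Over all genes tested 13.5% met this criterion as higher and 19.5% as lower. Counting the order of the arrays only, Pank1, Pank3, Ppcs and Coasy had both FSP27-deficient arrays above both wild-type arrays, and Vnn1 had both below. Of all genes 22.7% and 31.4% did so.

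The genes around the pathway were read from 9 further lists, whose counts stand against the 5.79% of all genes tested that were called higher and the 6.51% called lower. In a list of enzymes of β-alanine and branched-chain amino acids, 1 of 4 genes tested was higher and 1 lower (median log2 fold change 0.17). Bcat2, a mitochondrial branched-chain aminotransferase, rose from 710.0 and 466.4 to 1834 and 1372 (log2 fold change 1.44, SE 0.25, adjusted p = 0.0029 from limma). Abat, a mitochondrial transaminase of GABA and β-alanine, had wild-type signals of 476.1 and 473.3 and FSP27-deficient signals of 10.2 and 122.2. Its log2 fold change of -3.03 (SE 0.65, adjusted p = 0.0097 from limma) is uncertain in size, since its mean was over 100 in wild-type WAT alone and 10.2 is under the lower quartile of its array (55.9). A dim Abat probe set, with signals of 100.6 and 41.7 against 50.8 and 15.4, was not tested. None of the 3 vanin and ENPP relatives tested passed, Vnn3 among them (median 0.26).

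CoA is broken down inside the cell by some of the nudix hydrolases. Of 4 nudix genes tested 2 were higher, against 5.79% of all genes, and none lower (median 0.70). Nudt7, a peroxisomal CoA diphosphatase, rose from 1992 and 1989 to 3517 and 3385 (log2 fold change 0.79, adjusted p = 0.011). Its dim second probe set stayed at 125.1 to 136.8 on all arrays (-0.05, adjusted p = 0.97). Nudt19, also peroxisomal, rose from 800.4 and 597.2 to 1219 and 1462 (0.93, adjusted p = 0.017 from limma), while a further Nudt19 probe set lay the same way without passing (0.56, adjusted p = 0.18). Of 2 CoA carriers tested, Slc25a17, a peroxisomal membrane carrier, was higher (0.76, adjusted p = 0.025), and none was lower (median 0.42).

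CoA also donates the phosphopantetheine arm of several proteins. On a list of such proteins and related enzymes, 2 of 4 genes tested were higher and none lower (median 0.75). Fasn, the brightest of them, had 17117 and 16970 in FSP27-deficient WAT against 17163 and 18683 in wild-type WAT. It did not pass the test (log2 fold change -0.07, adjusted p = 0.82 from limma). Ndufab1, the mitochondrial acyl carrier protein, rose from 4820 and 4961 to 10525 and 10467 (log2 fold change 1.10, adjusted p = 8.8e-04 from limma), whereas a dimmer Ndufab1 probe set had 508.2 and 455.8 against 422.6 and 473.3 (0.10, adjusted p = 0.85). Aldh1l1, a folate enzyme that bears this arm, was higher as well (0.86, adjusted p = 0.0076).

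Among the enzymes that use CoA, 1 of 7 acyl-CoA thioesterases tested was higher, Acot13 (0.79, adjusted p = 0.022), and none was lower (median 0.23). Of 13 acyl-CoA synthetases tested 2 were higher and 1 lower (median 0.41). Slc27a1, a fatty acid transport protein with synthetase activity, rose from 1519 and 1189 to 2819 and 3558 (log2 fold change 1.23, adjusted p = 0.0024 from limma). Suclg1, a subunit of the succinate-CoA ligase of the TCA cycle, was higher by 1.04 (adjusted p = 0.0032). Acsl5, a long-chain synthetase, fell from 1510 and 1782 to 918.4 and 984.3 (-0.78, adjusted p = 0.023). Neither the 2 genes of biotin handling nor the 3 acyl-CoA binding proteins that were tested passed (medians -0.50 and 0.36).

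**Figure D3:**
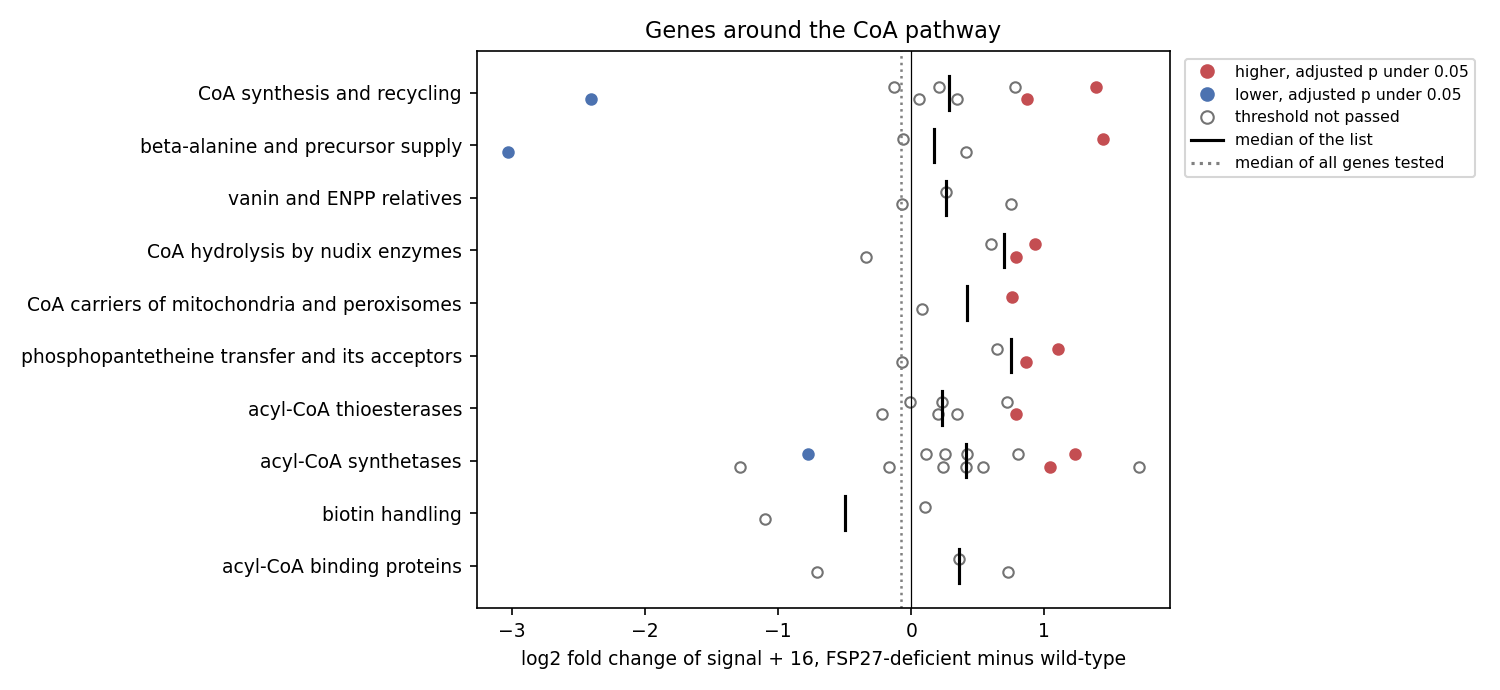
Log2 fold change of signal + 16, FSP27-deficient minus wild-type, of every gene tested in the CoA synthesis and recycling list and in 9 lists around it; each circle is a gene, filled where its adjusted p is under 0.05, and black bars are list medians. The medians of the nudix hydrolases (0.70) and of the phosphopantetheine list (0.75) lie to the right of the median of all genes (-0.08). Vnn1 and Abat lie far to the left.

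In whole tissue, fewer cells of a type and less RNA per cell cannot be told apart. Of 6 adipocyte markers tested none was higher and Lep alone was lower, with a median log2 fold change of 0.28. Median log2 fold changes were below 0, the direction of Vnn1, for markers of macrophages, mesothelium, endothelium, epididymis epithelium and mast cells. For markers of granulocytes the median was above 0. Some markers had a mean over 100 in 1 genotype alone, so the filter bears on these medians. In wild-type WAT alone these were Msln, Wt1, Lcn5, Cpa3, Tpsb2 and Prtn3, and in FSP27-deficient WAT alone Mpo. The granulocyte median was that of S100a8, with 692.2 and 218 in FSP27-deficient WAT against 255.5 and 286.9. Of 9 macrophage markers tested 7 were lower. The 10 with a probe set summed to 7073 and 8350 in FSP27-deficient WAT and 19257 and 17939 in wild-type WAT. Of 6 mesothelium markers tested 3 were lower, and the 7 with a probe set had sums of 2139 and 1706 against 4533 and 4583. Msln, a defining mesothelial marker, fell from 408.7 and 443.1 to 50.1 and 130.6. Its mean was over 100 in wild-type WAT alone, and 50.1 is under the lower quartile of its array (55.9).

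Of 8 endothelium markers tested 1 was lower, with sums of 5675 and 6336 against 7959 and 8785. Of 2 epididymis epithelium markers tested 1 was lower. The 5 with a probe set had sums of 597.3 and 392.4 against 652.3 and 2342, so the wild-type duplicates differed widely. Of 3 granulocyte markers tested 1 was lower, Prtn3, with 14.3 and 21.9 in FSP27-deficient WAT against 207.5 and 750 in wild-type WAT. Its mean was over 100 in wild-type WAT alone, and both FSP27-deficient signals were under the lower quartiles of their arrays (55.9 and 53.8). The 9 granulocyte markers with a probe set had sums of 1163 and 728.5 against 861.0 and 1339. The part of these cells in the lower Vnn1 signal was not tested.

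**Figure D4:**
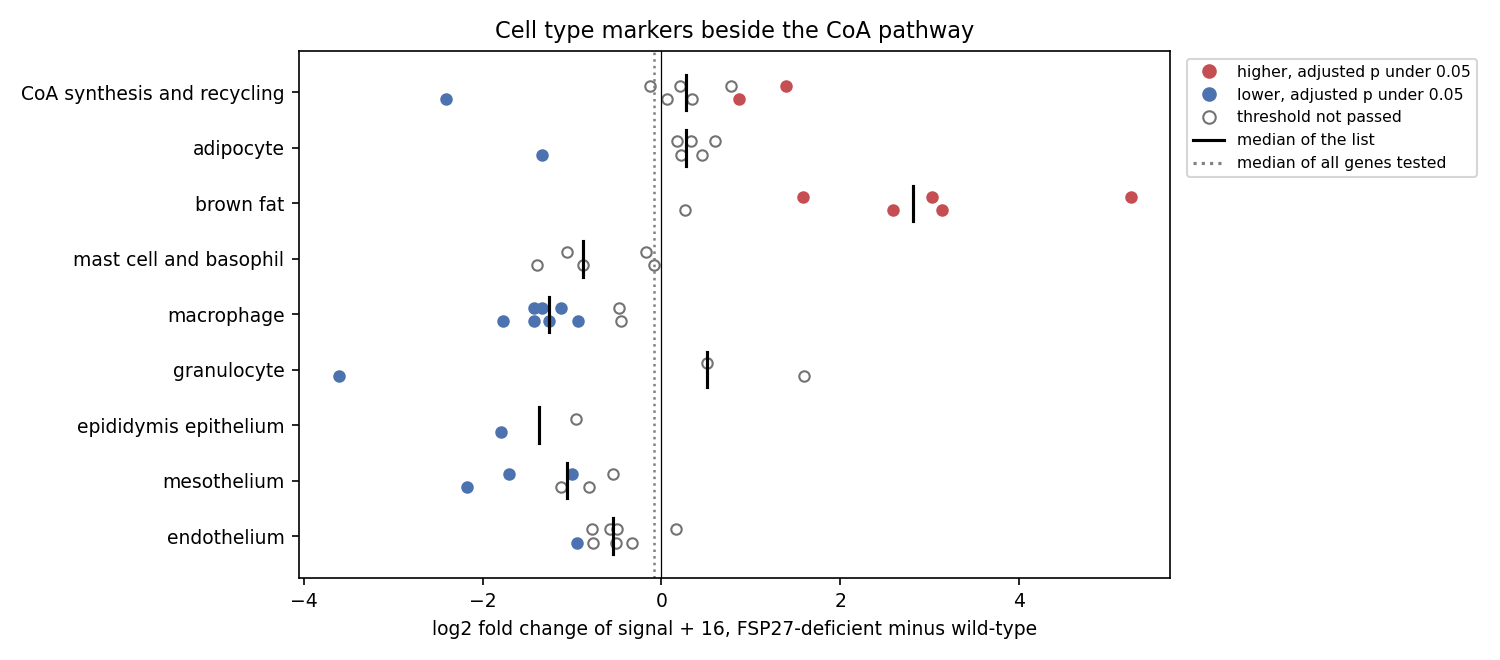
Log2 fold change of signal + 16, FSP27-deficient minus wild-type, of the CoA genes and of the cell type markers tested; each circle is a gene, filled where its adjusted p is under 0.05, and black bars are list medians. The macrophage (median -1.26) and mesothelium (-1.06) markers lie to the left, the brown fat markers (2.81) to the right, and the adipocyte markers share the median of the CoA genes (0.28).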

How the data were processed

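RNA of gonadal WAT was measured on 4 Affymetrix arrays, 2 per genotype. The deposited intensity values are the authors' GCOS signals, on a linear scale. The mean without the top and bottom 2% of probe sets was 500.2 on every array, so each array had been scaled to 1 level. The sources used here do not give the GCOS version.

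Probe sets were named from the platform's annotation, 20393 with 1 symbol, 691 with several, which were not used, and 1606 unnamed here. Genes whose 4 signals averaged at least 100 (8522 of 12393) were compared by limma 3.58.1 under R 4.3.3 (lmFit, then eBayes allowing a trend) as log2(signal + 16), with p-values adjusted by Benjamini-Hochberg and a call threshold of 0.05, and 14360 probe sets likewise. Residual degrees of freedom were 2, and 12.1 once the prior's were added. Intervals are 95% intervals. p-values measure technical spread only. The steps were tested on simulated data.

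All 10 members are named, with every probe set, and Cidec. From each list around the members come up to 3 called genes of the largest change. Vnn3 and Fasn were added for their position or signal, and the other genes named, such as Dio2, Prtn3, Msln, Adipoq and Fabp4, as markers of cell types. Members and lists were chosen with earlier results of these data known. Alternatives tried were a pseudocount of 1 or 64, no filter, a minimum of 200, quantile normalization, centring on the median, no trend, the methods' t-test, other summaries of a gene's probe sets, a replicate block and each array left out, where the single array left in a genotype takes the spread of the others. Protein and real-time PCR data were not analysed here.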

Additional observations from a re-analysis of the deposited data

How the results depend on the processing

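Every alternative in which Coasy and Ppcs were tested left them higher and every alternative in which Vnn1 was tested left it lower, but the calls were less stable. Against 2 CoA genes called higher and 1 lower, limma without the trend called 0 and 0, the methods' t-test 0 and 0, no filter left 1 higher, and a minimum of 200 left 0 lower, since Vnn1 was then not tested. For probe sets the same settings gave 0 and 0, 0 and 0, 1 higher and 0 lower, and 0 lower. With each array left out in turn, 1 to 2 genes and 1 to 2 probe sets were called higher and 0 to 1 of each lower. By the fold criterion 0 were lower with a minimum of 200, and 1 to 2 with an array left out, Enpp3 being the second without FSP27-deficient replicate 1. The sign turned for genes that did not pass the test: Ppcdc was 0.44 as the mean of its probe sets and -0.32 to 0.06 with an array left out, Enpp3 -0.77 to 0.89 and Slc5a6 -0.15 to 0.57.

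Over all genes, 493 were called higher and 555 lower. Without the trend limma called 1 and 0 (1860 before adjustment at p under 0.05). The methods' t-test called 0 and 0 (1309 before adjustment). Without wild-type replicate 1 the counts were 215 and 190, without wild-type replicate 2 269 and 200, and without FSP27-deficient replicate 2 503 and 873. Quantile normalization (471 and 459) and centring (458 and 407) moved the median of all genes from -0.08 to -0.02 and -0.01. Deviations of arrays with the same replicate number had a correlation of 0.065 over genes. This value is small, but it cannot exclude that the numbers pair the arrays. The replicate block gave 2 CoA genes higher and 1 lower, and 634 higher and 831 lower over all genes. The causes of these changes were not tested. Signals under the lower quartile limit Vnn1 and Enpp3 most.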
